A study of Mus musculus with 49 samples.

Results

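The long non-coding RNAs described here are Malat1, Neat1, Meg3, Rian, Mirg, Miat, Snhg11, Snhg14, Kcnq1ot1 and Peg13, transcripts known for staying in or acting in the nucleus. These 10 genes were chosen by name, and all 10 are among the 52636 genes of the count table. Their levels were compared between RNA of sorted nuclei, RNA of sorted whole cells and RNA bound to ribosomes, and between D1- and D2-MSNs. D1- and D2-MSNs are the projection neurons of the nucleus accumbens (NAc), medium spiny in shape, that express the dopamine receptor Drd1 or Drd2. Against whole cells, 7 of the 10 RNAs were called higher in libraries labelled nuclear D1, where 9.46% of all genes were, and Neat1 and Miat in those labelled nuclear D2, where 5.46% were. The first of these counts depends on scaling and on the libraries fitted. With library totals alone 3 were called higher and 2 lower, where 435 and 20805 of 36241 genes were. With DESeq2 size factors 8 were called higher, where 3282 of these genes were. When only 6 libraries of each of both groups were fitted, 4 were called higher. RiboTag libraries, which hold ribosome-bound RNA, had 8 of the 10 at a lower level in each cell type, where 62.2% (D1) and 59.6% (D2) of all genes were also lower. Peg13 went the other way, with its lowest level in nuclear D2 and its highest in RiboTag libraries when library sizes were scaled by the trimmed mean of M values (TMM).

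Long non-coding RNAs act as RNA, and many are retained where they are made. Malat1 collects in nuclear speckles, bodies rich in splicing factors, Neat1 is the scaffold RNA of paraspeckles, and Miat, also called Gomafu, forms neuronal nuclear spots of its own and binds splicing regulators. Meg3, Rian and Mirg are read in succession from the maternal chromosome of the Dlk1-Dio3 imprinted domain, Snhg14 and Kcnq1ot1 are paternally expressed transcripts that run antisense to Ube3a and Kcnq1, and Peg13 is a paternally expressed gene inside an intron of Trappc9. Rian, Snhg11 and Snhg14 host small nucleolar RNAs (snoRNAs), and Mirg hosts a cluster of microRNAs.

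The study asked how the isolation method shapes the transcriptome of the same neurons. All mice were on a C57BL/6J background, and each sample came from its own mouse per the study's methods. For nuclear-FACS, nuclei were sorted from frozen NAc of male mice of the crosses Drd1-cre or Drd2-cre by Thy1-loxPSTOPloxP-EGFP-F, so the label depends on both the Cre driver and the Thy1 transgene (6 D1 and 5 D2 libraries). For whole cell-FACS, cells carrying a cytoplasmic fluorophore under the Drd1 or Drd2 promoter were sorted from fresh NAc of males after papain digestion (8 D1 and 6 D2 libraries). For RiboTag, the HA-tagged ribosomal protein Rpl22 of Drd1-cre or Drd2-cre by Rpl22-loxPexon4loxP-exon4-HA mice was immunoprecipitated from fresh NAc, from males (6 D1 and 6 D2 libraries) and females (5 D1 and 5 D2 libraries). The ages of the mice are not given in the sources used here.

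The libraries held 10476223 to 27965357 counts in whole cell, 3701255 to 68777008 in nuclear and 24076888 to 45641342 in RiboTag samples. The 10 highest genes held 85 to 88.3% of the counts of RiboTag libraries, 20.3 to 66.9% in nuclear D1, 5.23 to 13.9% in nuclear D2 and 2.7 to 54.5% in whole cell libraries. Whole cell and RiboTag libraries followed their labels on the markers of D1-MSNs (Drd1, Pdyn, Tac1, Isl1, Chrm4) and D2-MSNs (Drd2, Adora2a, Penk, Gpr6, Sp9). The libraries labelled nuclear D1 did not: their summed D2-MSN markers lay at a median of 260 CPM, counts per 1e6 counts, above the 119 CPM of nuclear D2 libraries, while their summed D1-MSN markers, at 32.9 CPM, were also above the 8.91 CPM of nuclear D2 libraries. Drd1 was still higher in nuclear D1 (median 12.4 CPM) than in nuclear D2 libraries (1.82 CPM) and Drd2 lower (55.2 against 101 CPM), while the other 4 D2-MSN markers went against the labels, Penk at 165 against 12 CPM, Adora2a at 13.4 against 5.54, Sp9 at 2.92 against 1.82 and Gpr6 at 1.58 against 0.47. Directions between the nuclear groups below are therefore those of libraries with these labels. Oligodendrocyte markers summed to 200 to 608 CPM in nuclear D1, 81.3 to 204 in nuclear D2, 26.7 to 44 in whole cell and 57.2 to 145 in RiboTag libraries. Endothelial markers summed to 45.3 to 57.2 CPM in nuclear D2 and 7.79 to 47.7 CPM in nuclear D1 libraries.

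The genes lie as follows in the mouse genome GRCm38. Malat1 (chr19:5795690-5802672, minus strand) and Neat1 (chr19:5824708-5845478, minus strand) are neighbours without introns in their longest transcripts of 6983 and 20771 bases. Meg3 (chr12:109541001-109571726), Rian (chr12:109603940-109661716) and Mirg (chr12:109729764-109749460) follow each other on the plus strand, and annotated exons cover 58.9, 31.6 and 37% of their spans. Miat is at chr5:112213228-112229395 on the minus strand, and Snhg11, which the annotation gives as protein_coding, at chr2:158375638-158386145 on the plus strand. Snhg14 (chr7:59307924-59975759, minus strand) spans 667.8 kb, of which exons make up 3.91%, and holds 208 annotated snoRNA genes. Kcnq1ot1 (chr7:143203458-143296549, minus strand) is a continuous transcript of 93092 bases lying within Kcnq1 on the opposite strand. Peg13 (chr15:72805600-72810324, minus strand) is a continuous transcript of 4725 bases within an intron of Trappc9 on the same strand. Counting covered introns as well as exons, ignored strand and gave a fragment to each gene it touched, so reads of Kcnq1ot1 and Kcnq1, of Snhg14 and Ube3a, of Peg13 and Trappc9, and of a host and its small RNAs cannot be told apart.

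The microRNAs within the 3 genes of the Dlk1-Dio3 domain are shown because Mirg was the RNA furthest reduced on ribosomes. RefSeq (GRCm38.p6) places 35 mature microRNAs within members, 26 in Mirg with 25 different seeds, 6 in Rian and 3 in Meg3. Capitals mark the seed, bases 2 to 8. The hairpins give few fragments of their own in these libraries, with 68 to 491 counts over all libraries for those inside Mirg, and these may be fragments of the host RNA. The first of the sequences is that of miR-134, known for limiting dendritic spine size, and those of miR-453 and miR-496a-5p share a seed.
mmu-miR-134-5p (Mirg): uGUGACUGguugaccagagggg
mmu-miR-382-5p (Mirg): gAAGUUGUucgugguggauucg
mmu-miR-410-3p (Mirg): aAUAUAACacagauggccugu
mmu-miR-453 (Mirg): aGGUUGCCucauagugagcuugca
mmu-miR-496a-5p (Mirg): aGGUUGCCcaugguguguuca
mmu-miR-370-3p (Rian): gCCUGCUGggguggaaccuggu
mmu-miR-770-5p (Meg3): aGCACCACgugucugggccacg

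The promoters of Meg3 and Malat1 are shown because these were the most abundant of the RNAs by count in every group of libraries and had similar profiles over them. Each sequence runs 5′ to 3′ from 250 bases before to 50 bases after a RefSeq transcription start in GRCm38.p6, and RefSeq promoters matched 8 of the 10 genes. Both strands were searched for the cAMP response element TGACGTCA (capitals), for CCAAT, for TATAAA and for GGGCGG, of which only the matches to TATAAA overlap each other here. Of the 2 RefSeq windows of Meg3, the first is shown and the second (chr12:109545148-109545447) holds 0 of the 4 motifs. The window shown holds 1 TGACGTCA, at -57 from the start, with 1 CCAAT and 2 TATAAA, which overlap on opposite strands, and the Malat1 window holds none of the 4. Of 32851 mouse promoters of this length, 1.79% hold TGACGTCA, 37.4% CCAAT, 13.6% TATAAA and 35.7% GGGCGG.
Meg3 promoter (chr12:109540746-109541045, plus strand): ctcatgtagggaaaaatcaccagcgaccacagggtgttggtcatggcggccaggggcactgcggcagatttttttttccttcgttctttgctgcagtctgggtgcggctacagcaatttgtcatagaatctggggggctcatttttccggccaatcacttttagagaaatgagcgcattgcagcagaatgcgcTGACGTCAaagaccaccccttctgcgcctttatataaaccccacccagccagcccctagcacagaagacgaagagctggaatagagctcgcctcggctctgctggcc
Malat1 promoter (chr19:5802623-5802922, minus strand): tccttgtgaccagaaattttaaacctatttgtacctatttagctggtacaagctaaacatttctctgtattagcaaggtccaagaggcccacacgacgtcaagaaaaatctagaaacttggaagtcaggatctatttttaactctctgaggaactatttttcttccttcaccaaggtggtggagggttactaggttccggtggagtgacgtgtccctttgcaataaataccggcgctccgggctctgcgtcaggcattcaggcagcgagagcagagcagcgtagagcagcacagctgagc

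Malat1 dominated the set in every preparation. It made up 55.9 to 71.4% of the counts of the 10 RNAs over all whole cell, nuclear and RiboTag libraries, and Malat1 with Meg3 73.3 to 87%. Together the 10 RNAs took 0.337 to 2% of all counts in whole cell and nuclear libraries and 0.0209 to 0.0558% in RiboTag libraries, whose totals are mostly the counts of their 10 highest genes. Levels below are fragments per kilobase of gene span and 1e6 counts (FPKM) on library sizes scaled by TMM over all 47 libraries. The order by median FPKM opened with Malat1 in all 8 groups, without overlap with the next gene. In whole cell D1 libraries it went on with Meg3 (13.2), Snhg11 (5.21), Rian (3.25), Peg13 (3.04), Mirg (0.968), Kcnq1ot1 (0.372), Miat (0.354), Snhg14 (0.173) and Neat1 (0.13), and each of these neighbours overlapped the next. Whole cell D2 libraries had the same order, and there Meg3 stood clear of Snhg11, Peg13 clear of Mirg and Mirg clear of Kcnq1ot1. In all 4 RiboTag groups Peg13 came directly after Malat1 and apart from both neighbours, and Mirg came last. In nuclear D1 libraries the order after Malat1 was Meg3, Snhg11, Rian, Miat, Peg13, Mirg, Kcnq1ot1, Snhg14 and Neat1, with every pair of neighbours overlapping. In nuclear D2 libraries only Malat1, and Snhg11 from Miat, were clear of the gene below, and Peg13 had dropped to the place before Snhg14, the last.

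**Figure D1:**
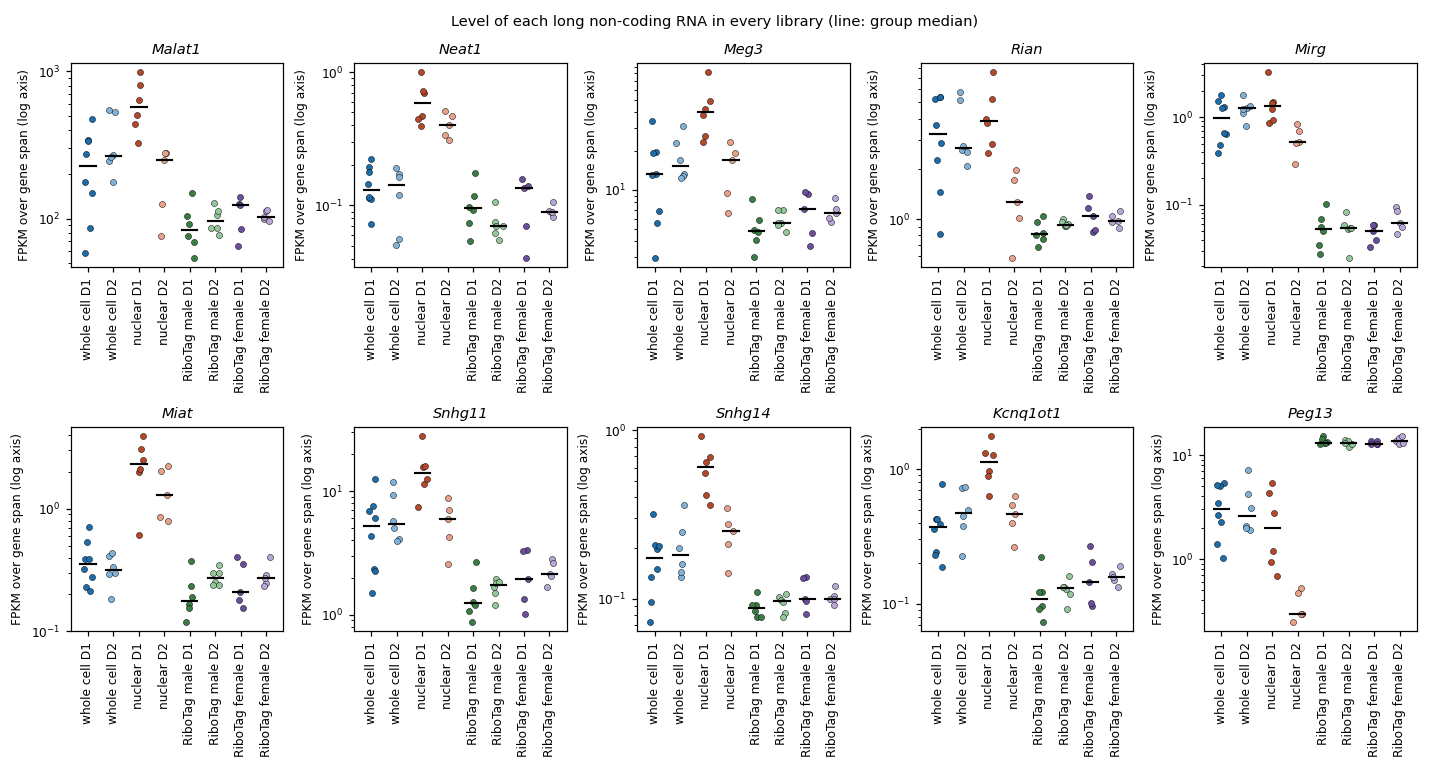
FPKM over the gene span (log axis) of each of the 10 RNAs in every library of the 8 groups, with a line at the group median. Most RNAs stand highest in nuclear D1 and lowest in RiboTag libraries, whereas Peg13 lies at 11.9 to 15.1 in all RiboTag libraries and at 0.247 to 0.522 in nuclear D2.

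Against whole cells, the RNAs were mostly higher in libraries labelled nuclear D1. By edgeR's quasi-likelihood test in 1 fit over all groups, 7 of the 10 were called higher and 0 lower (adjusted p of at most 0.05 and an absolute log2 fold change above 0.38), where 9.46% of the 36241 genes tested were called higher and 8.98% lower. Their median log2 fold change was 1.53, against -0.38 over all genes and -0.91 over lincRNA genes, and with library totals it was 0.50 against -1.46 over all genes. With DESeq2 size factors 8 were called higher, where 3282 of the genes were. The same number was called higher with the 10 highest genes of each library left out, where 4564 of 36203 genes were. In a fit to the libraries numbered 1 to 6 of nuclear D1 and whole cell D1 alone, chosen after seeing the data, 4 were called higher (Neat1, Miat, Snhg14 and Kcnq1ot1), while Malat1 (1.06), Meg3 (1.33) and Snhg11 (1.15) kept their direction without a call (edgeR adjusted p = 0.186, 0.138 and 0.122). In nuclear D2 libraries 2 were called higher and 3 lower, where 5.46% and 14.4% of all genes were, and the median was -0.24 against 0.25. It was 0.12 against 0.65 with library totals, 0.05 against 0.49 with DESeq2 size factors, and 0.32 against 0.31 with background between genes subtracted. The change from whole cells to nuclei was itself called lower in D2 than in D1 libraries for 8 of the 10. Of all genes, 23.1% were called in either direction. It was called lower for 4 when the background between genes was subtracted, where 2531 of 35947 genes were called higher and 3052 lower. With library totals alone it was called lower for 1, where 20264 of 36241 genes were called higher and 285 lower. With TMM scaling over all genes tested and all groups in the fit, then, a nuclear excess was called for Neat1 and Miat in both groups. It was called for Malat1, Meg3, Snhg11, Snhg14 and Kcnq1ot1 in libraries labelled nuclear D1. For Rian, Mirg and Peg13 it was called in neither. These are bulk samples, in which fewer cells of a type and less RNA per cell cannot be told apart.

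On ribosomes, 8 of the 10 RNAs were called lower than in whole cells and 1 higher in D1-MSNs, where 62.2% of all genes were called lower and 17% higher. D2-MSNs gave the same counts, 8 lower and 1 higher, against 59.6% and 18.2% of genes. A lower level in RiboTag was thus the common case, and the RNAs' median of -1.43 in D1 and -1.70 in D2 lay above the all-gene medians of -2.66 and -2.49. Against protein-coding genes, with medians of -1.13 and -1.12, it lay below, and 6 RNAs in D1 and 7 in D2 were under that median. The lincRNA genes tested had medians of -6.17 and -5.84. With the background between genes subtracted, the RNAs' medians of -1.92 in D1 and -2.09 in D2 came close to all-gene medians of -2.16 and -2.13. The calls were then 7 lower in D1 and 6 lower in D2, with 1 higher in each. Of 35947 genes, 18308 were called lower and 4714 higher in D1, and 18465 and 5835 in D2. That background made up 8.34 to 52.5% of whole cell counts and 0.0255 to 0.0628% of RiboTag counts. No difference between D2 and D1 in the step from whole cells to ribosomes was called for any of the 10 by edgeR, with 0 at an unadjusted p of at most 0.05 and 0 called by DESeq2, and the values ran from -0.38 to 0.67 (0.174% of genes were called).

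Nuclear libraries were also compared with RiboTag libraries directly. In D1, 9 were called higher in nuclei and 1 lower, and these groups did not overlap for any of the 10, where 57.6% of genes were called higher and 16.3% lower, and 32.7% did not overlap in either direction. In D2, 8 were called higher and 1 lower, where 64.4% and 21.3% of genes were. There 6 RNAs were higher without overlap, 1 was lower without overlap and 3 overlapped, where 75.1% of genes did not overlap. The RNAs' medians were 2.92 and 1.59, against 1.23 and 1.36 over protein-coding genes and 2.66 and 3.03 over all genes.

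**Figure D2:**
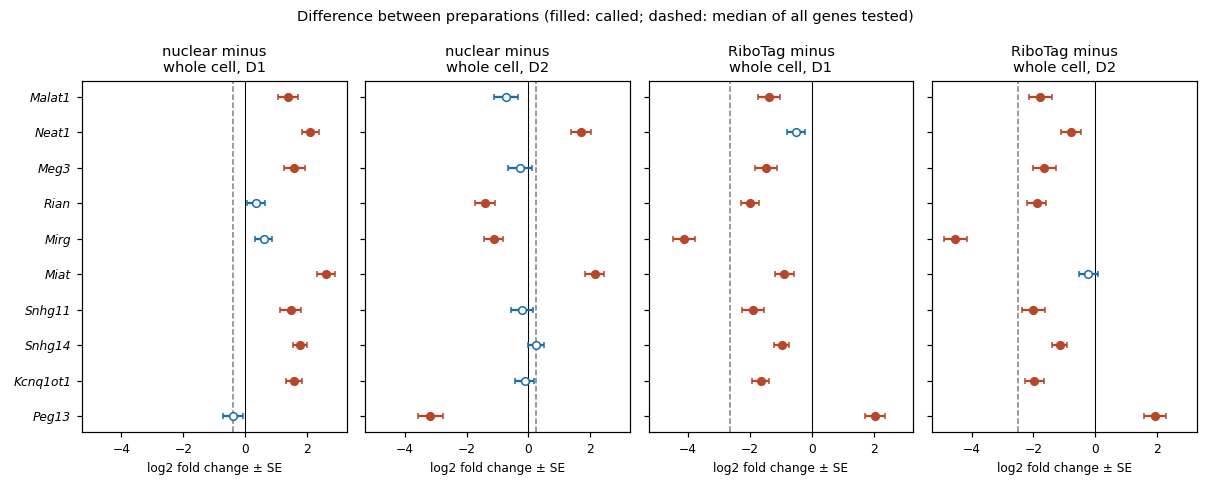
Log2 fold change with its standard error (edgeR) of the 10 RNAs in nuclear or RiboTag against whole cell libraries, D1 and D2 apart, filled where called, with a dashed line at the median of all genes tested. Neat1 and Miat lie at 1.70 to 2.62 in both nuclear panels, and Peg13 is the RNA at about 2 in both RiboTag panels, a value that turns to -1.44 and -1.40 when library totals alone set the scale.

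These directions depend on how library sizes were scaled. Few genes take most counts of some libraries, and the part this had was not tested. The all-gene median of nuclear against whole cell in D1 moved from -0.38 with TMM to -0.47 with DESeq2's size factors, -0.52 with TMM over shared protein-coding genes and -1.46 with library totals. In RiboTag against whole cell D1 it moved from -2.66 to -2.83, -3.24 and -5.87 in the same order. Of the genes called in nuclear against whole cell D1, 51.3% were higher with TMM and 2.05% with library totals, and in D2 27.5% and 50.6%. In RiboTag against whole cell, 21.5% (D1) and 23.4% (D2) of calls were higher with TMM and 0.201% and 0.506% with totals. TMM over shared protein-coding genes was chosen after seeing the data. With it, the calls among the 10 were 7 higher in nuclear D1, and 3 higher and 3 lower in nuclear D2. RiboTag of each cell type had 1 higher and 9 lower. Of 36241 genes, 2792 were called higher in nuclear D1, and 4119 higher and 3006 lower in nuclear D2. In RiboTag 3832 were called higher and 25889 lower in D1, and 4306 and 24960 in D2.

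Of the RNAs of nuclear bodies, Malat1 followed the split between the nuclear groups. Its FPKM had a minimum of 58.6, a median of 226 and a maximum of 474 in whole cell D1 libraries, and of 328, 572 and 986 in nuclear D1 libraries. Whole cell D2 libraries lay at 176, 266 and 546, and the 5 nuclear D2 libraries at 125, 280, 252, 76.2 and 281. The nuclear D1 libraries thus reached above the whole cell ones with some overlap, and the nuclear D2 libraries did not. Malat1 was 2.61-fold higher in nuclear D1 (log2 1.38 ± 0.33 SE, edgeR adjusted p = 0.00202), and its difference of -0.73 ± 0.38 in nuclear D2 was not called (adjusted p = 0.19). RiboTag libraries of males ran from 53.9 through 83.8 to 150 in D1 and from 77.8 through 96.3 to 127 in D2, 2.61-fold and 3.4-fold below whole cells (log2 -1.39 ± 0.35 and -1.77 ± 0.37, edgeR adjusted p = 0.000471 and 4.19e-05). The RiboTag D2 libraries lay below every whole cell D2 library, and the D1 groups overlapped. Within each library Malat1 stayed among the most abundant genes, at or above the 99.8th percentile of FPKM.

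Neat1 was higher in the nuclei of both groups. Its FPKM had a minimum of 0.073, a median of 0.13 and a maximum of 0.224 in whole cell D1 and of 0.0505, 0.142 and 0.19 in whole cell D2 libraries, levels at which 32.7 to 54.7% of its count was what the background between genes alone would give. Nuclear D1 libraries had 0.391, 0.585 and 0.994, and nuclear D2 libraries 0.338, 0.466, 0.513, 0.308 and 0.402. No nuclear library overlapped a whole cell library of its group. The rise was 4.31-fold in D1 (log2 2.11 ± 0.27, edgeR adjusted p = 5.76e-08) and 3.24-fold in D2 (1.70 ± 0.31, adjusted p = 3.58e-05). Neat1 is known to be high in glia, and markers of oligodendrocytes and astrocytes were also higher in nuclear than in whole cell libraries. All 5 of each list had counts in every nuclear library, and the astrocyte markers summed to 64.1 to 131 CPM in nuclear D1, 48.1 to 61.6 in nuclear D2 and 12.9 to 42.4 in whole cell libraries. Microglia markers differed less, at 45.7 to 60.3 CPM in nuclear and 38.3 to 52.7 in whole cell libraries. Oligodendrocyte markers, unlike Neat1, were also higher in RiboTag libraries (57.2 to 145 CPM) than in whole cell libraries (26.7 to 44 CPM). Astrocyte markers lay at 6.52 to 16.6 CPM in RiboTag libraries. The part of glia in the level of Neat1 was not tested. On ribosomes Neat1 ran from 0.0545 through 0.0952 to 0.176 in D1 and from 0.0552 through 0.0703 to 0.106 in D2 males. Both RiboTag groups overlapped whole cells. Only the D2 difference was called (-0.77 ± 0.32, edgeR adjusted p = 0.0273, against -0.50 ± 0.29 and 0.114 in D1), and it was lost without the whole cell D2 library number 2 (-0.46), whose 10 highest genes took 54.5% of its counts.

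Miat had the largest rise of the 10 in both nuclear groups. Its FPKM had a minimum of 0.215, a median of 0.354 and a maximum of 0.711 in whole cell D1 and of 0.183, 0.317 and 0.435 in whole cell D2 libraries. Nuclear D1 libraries had 0.616, 2.3 and 3.88, and nuclear D2 libraries 0.798, 2.02, 1.29, 0.858 and 2.21. The D2 groups did not overlap, and in D1 only the lowest nuclear library fell among the whole cell ones. Miat was 6.15-fold higher in nuclear D1 (log2 2.62 ± 0.28, edgeR adjusted p = 6.66e-10) and 4.4-fold higher in nuclear D2 (2.14 ± 0.32, adjusted p = 1.37e-06). RiboTag libraries ran from 0.119 through 0.177 to 0.376 in D1 and from 0.238 through 0.274 to 0.35 in D2 males, overlapping whole cells in both. The D1 difference was called (-0.89 ± 0.30, edgeR adjusted p = 0.00838), not so in the fit to male libraries only (-0.57), and the D2 difference was not (-0.22 ± 0.31, adjusted p = 0.522).

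Of the RNAs of the Dlk1-Dio3 domain, Meg3 resembled Malat1. Rian and Mirg, its neighbours downstream, were not called higher in either nuclear group with TMM scaling over all genes tested. Meg3 FPKM had a minimum of 2.97, a median of 13.2 and a maximum of 34.3 in whole cell D1 and of 23.4, 40.5 and 81.5 in nuclear D1 libraries. Whole cell D2 libraries had 12.3, 15.3 and 31.1, and nuclear D2 libraries 9.45, 19.2, 17, 6.65 and 23.5. Its nuclear level was above most whole cell libraries in D1, and in D2 the lowest nuclear libraries lay below the whole cell ones and the others among them. Meg3 rose 3.02-fold in nuclear D1 (log2 1.59 ± 0.34, edgeR adjusted p = 0.000451) and differed by -0.27 ± 0.38 in nuclear D2 (adjusted p = 0.669). In RiboTag libraries of males it ran from 3 through 4.8 to 8.46 in D1 and from 4.76 through 5.56 to 7.05 in D2. All RiboTag D2 libraries lay below the whole cell D2 libraries, while the D1 groups overlapped. The decreases were 2.79-fold and 3.12-fold (-1.48 ± 0.35 and -1.64 ± 0.37, edgeR adjusted p = 0.000266 and 0.000134).

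Rian, the snoRNA host of the domain, had an FPKM with a minimum of 0.812, a median of 3.25 and a maximum of 5.41 in whole cell D1 and of 2.48, 3.88 and 7.57 in nuclear D1 libraries. In D2, whole cell libraries had 2.08, 2.67 and 5.76 and nuclear libraries 1.02, 1.97, 1.71, 0.586 and 1.27. The D1 groups overlapped over most of their range, and every nuclear D2 library was below every whole cell D2 library. Rian did not pass in nuclear D1 (0.35 ± 0.28, edgeR adjusted p = 0.379) and fell 2.65-fold in nuclear D2 (-1.40 ± 0.33, adjusted p = 0.000992). RiboTag libraries of males ran from 0.678 through 0.815 to 1.04 in D1 and from 0.907 through 0.927 to 0.997 in D2. Every RiboTag D2 library lay below the whole cell D2 libraries and the D1 groups overlapped, with levels 4.01-fold and 3.71-fold lower on ribosomes (-2.0 ± 0.30 and -1.89 ± 0.31, edgeR adjusted p = 1.3e-07 and 8.7e-07).

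Mirg was the RNA furthest reduced on ribosomes. Its FPKM had a minimum of 0.389, a median of 0.968 and a maximum of 1.79 in whole cell D1 and of 0.8, 1.26 and 1.79 in whole cell D2 libraries, against 0.0273, 0.0527 and 0.103 in RiboTag D1 and 0.0247, 0.0542 and 0.0828 in RiboTag D2 males. These RiboTag levels rest on 5 to 21 counts a library, and no RiboTag library overlapped whole cells. The decreases were 17.6-fold (log2 -4.14 ± 0.36, edgeR adjusted p = 7.33e-14) and 22.9-fold (-4.52 ± 0.37, adjusted p = 2.27e-14), beyond the medians of all genes but short of the lincRNA medians of -6.17 and -5.84. RiboTag females lay at 0.0397, 0.0508, 0.0331, 0.0591 and 0.0588 in D1 and at 0.0623, 0.0948, 0.0461, 0.0564 and 0.0847 in D2. Nuclear D1 libraries had 0.857, 1.34 and 3.25, overlapping whole cells (0.60 ± 0.27, edgeR adjusted p = 0.116), and nuclear D2 libraries 0.518, 0.842, 0.704, 0.294 and 0.51. Mirg fell 2.19-fold in nuclear D2 (-1.13 ± 0.32, edgeR adjusted p = 0.00624), with slight overlap.

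The snoRNA hosts and the antisense RNA of Kcnq1 repeated the pattern of Malat1. Snhg11, a host RNA of neurons, had an FPKM with a minimum of 1.5, a median of 5.21 and a maximum of 12.5 in whole cell D1 and of 7.39, 14.1 and 27.6 in nuclear D1 libraries. It was 2.76-fold higher there (log2 1.47 ± 0.33, edgeR adjusted p = 0.00108), with some overlap. Nuclear D2 libraries, at 4.29, 8.82, 6.99, 2.55 and 5.99, overlapped the whole cell D2 libraries, at 3.93, 5.38 and 11.8, with only the one at 2.55 below them (-0.21 ± 0.37, adjusted p = 0.741). RiboTag males ran from 0.872 through 1.23 to 2.67 in D1 and from 1.21 through 1.75 to 1.95 in D2, 3.74-fold and 3.99-fold below whole cells (-1.90 ± 0.36 and -2.0 ± 0.37, edgeR adjusted p = 9.75e-06 and 8.63e-06). Only the D2 groups were free of overlap.

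Snhg14, host of the large snoRNA clusters next to Ube3a, had an FPKM with a minimum of 0.0724, a median of 0.173 and a maximum of 0.319 in whole cell D1, and of 0.359, 0.604 and 0.919 in nuclear D1 libraries. These groups did not overlap (3.46-fold, log2 1.79 ± 0.23, edgeR adjusted p = 5.61e-08). The background between genes would give 7.73 to 123% of its whole cell counts and 21.4 to 63.8% of its nuclear D2 counts, because its span is long. Nuclear D2 libraries had 0.211, 0.346, 0.276, 0.142 and 0.253 and whole cell D2 libraries 0.135, 0.18 and 0.361, which overlapped (0.24 ± 0.26, edgeR adjusted p = 0.565). RiboTag males ran from 0.0776 through 0.0875 to 0.109 in D1 and from 0.0773 through 0.0963 to 0.107 in D2. Its RiboTag decreases of -0.97 ± 0.24 and -1.15 ± 0.25 (edgeR adjusted p = 0.000396 and 8.23e-05) were lost in both cell types when this background was subtracted (-0.79 and -1.10, with larger errors).

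Kcnq1ot1, the antisense RNA known for silencing genes around Kcnq1, had an FPKM with a minimum of 0.188, a median of 0.372 and a maximum of 0.78 in whole cell D1 and of 0.628, 1.12 and 1.75 in nuclear D1 libraries. Only the highest whole cell library reached into the nuclear range (3-fold, log2 1.58 ± 0.26, edgeR adjusted p = 1.02e-05). Nuclear D2 libraries, at 0.396, 0.631, 0.543, 0.266 and 0.466, lay among the whole cell D2 libraries, at 0.227, 0.47 and 0.733 (-0.12 ± 0.30, adjusted p = 0.821). RiboTag males ran from 0.0729 through 0.109 to 0.221 in D1 and from 0.092 through 0.131 to 0.16 in D2, 3.14-fold and 3.92-fold lower than whole cells (-1.65 ± 0.28 and -1.97 ± 0.30, edgeR adjusted p = 1.74e-06 and 1.47e-07). In RiboTag libraries there were 90.9 to 98.5 Kcnq1ot1 counts for every 100 of Kcnq1, so nearly all that was counted for Kcnq1 there lay within the shared stretch. Kcnq1 itself was also called lower, with log2 fold changes of -2.39 ± 0.21 and -2.52 ± 0.22 in RiboTag D1 and D2.

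Peg13 took the opposite course. Its FPKM had a minimum of 12.7, a median of 13.2 and a maximum of 15.1 in RiboTag D1 males and of 11.9, 13 and 14 in RiboTag D2 males. In females it lay at 13.7, 12.7, 12.9, 13.8 and 12.7 in D1 and at 13.7, 14.5, 15.1, 12.8 and 13.1 in D2. Whole cell libraries had 1.03, 3.04 and 5.39 in D1 and 1.9, 2.59 and 7.16 in D2. Every RiboTag library was above every whole cell library, with far less scatter among mice than any other preparation showed. The rises were 4.12-fold in D1 (log2 2.04 ± 0.32, edgeR adjusted p = 2.92e-07) and 3.83-fold in D2 (1.94 ± 0.35, adjusted p = 4.89e-06), and with library totals alone they turned to -1.44 and -1.40, still above the all-gene medians of -5.87 and -5.40 on that scale. In nuclear D1 libraries Peg13 had 0.686, 2 and 5.37, overlapping whole cells (-0.39 ± 0.33, edgeR adjusted p = 0.4). In nuclear D2 libraries it had 0.299, 0.522, 0.475, 0.247 and 0.297, all below whole cells, a fall of 9.09-fold (-3.18 ± 0.40, adjusted p = 5.79e-08) although 14.2 to 36.7% of these counts were what the background would give. Nuclear against RiboTag, Peg13 was 5.4-fold lower in D1 and 34.8-fold lower in D2 (log2 -2.43 ± 0.36 and -5.12 ± 0.44, edgeR adjusted p = 1.43e-07 and 3.35e-14).

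The nuclear D1 libraries fell apart on Peg13. In the 3 libraries whose 10 highest genes took the largest share of counts (numbers 1, 5 and 6), its FPKM was 2.8 to 5.37, and in the other 3 libraries 0.686 to 1.2. The mitochondrial ribosomal RNA gene mt-Rnr2 lay at 4127 to 8023 CPM in the former, 206 to 543 in the latter and 19.3 to 110 in nuclear D2 libraries, and Actb, the mRNA of cytoplasmic actin, at 69.8 to 144, 12.2 to 26.9 and 1.79 to 6.24 CPM. Both of these genes were chosen after their values were seen. Malat1 did not separate the same libraries, at 328 to 810 and 442 to 986 FPKM. Without the 3 libraries, a choice made after seeing the data, Peg13 was called lower in nuclear D1 than in whole cells (-1.84 ± 0.37, edgeR adjusted p = 0.000294), and the 7 RNAs called higher were called higher again. The part that RNA from outside the nucleus had in these levels was not tested.

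**Figure D3:**
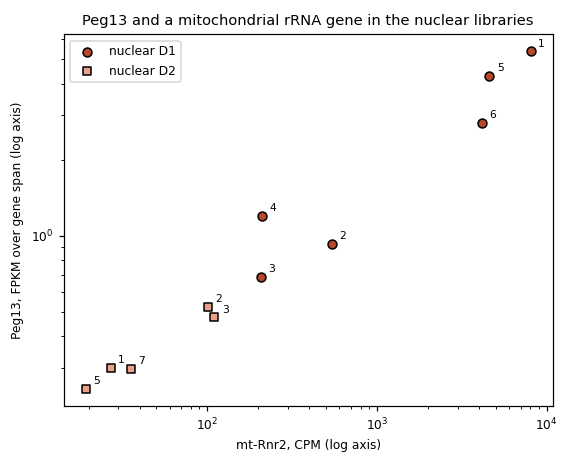
Peg13 (FPKM over its span, log axis) against mt-Rnr2 (CPM, log axis) in the 11 nuclear libraries, numbered as in the count table. The nuclear D1 libraries 1, 5 and 6 are high on both axes, and the 5 nuclear D2 libraries are low on both.

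Ratios of counts within a library do not depend on how libraries are scaled against each other. For every 100 counts of Malat1 there were, at the median, 1.03 of Peg13 in whole cell D1, 0.674 in whole cell D2, 0.288 and 0.127 in the nuclear D1 and D2 groups, and 11.1 and 9.33 in those of RiboTag males. The RiboTag libraries, from 5.99 to 16 over both sexes, did not overlap the others. For every 100 counts of Trappc9, whose intron holds Peg13, there were 16.4, 11.5, 10.5 and 1.48 of Peg13 in the whole cell and nuclear groups, and 66.1 and 64.8 in RiboTag. All 22 RiboTag libraries lay between 59.1 and 70.9, so a counted Trappc9 fragment was in most cases one that also counted for Peg13. Trappc9 itself differed little between preparations (log2 -0.08 to 0.12 against whole cells, none called), a gene total that includes Peg13.

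Within the Dlk1-Dio3 domain the ratios separated Mirg from Rian. Mirg counts per 100 of Meg3 had medians of 4.51 and 4.75 in whole cell D1 and D2, 2.15 and 2.81 in nuclear, and 0.761 and 0.575 in RiboTag male libraries. The highest RiboTag library of all, at 0.958, lay below the lowest nuclear one, at 1.39. Rian counts per 100 of Meg3 had medians of 37.4 and 35.7 in whole cell, 18.1 and 18.9 in nuclear and 31 and 31.2 in RiboTag male libraries. Rian thus kept on ribosomes nearly the share to Meg3 that it had in whole cells, and the nuclear libraries, from 10.2 to 22.7, were the low ones. Meg3 itself kept a near constant ratio to Malat1, with group medians of 24.1 to 33.3 per 100 counts. Snhg14 counts per 100 of Ube3a had medians of 145 and 169 in whole cell, 208 and 263 in nuclear and 58.7 and 59.2 in RiboTag male libraries. The long span of Snhg14 also takes in background between genes, whose part in this ratio was not tested.

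**Figure D4:**
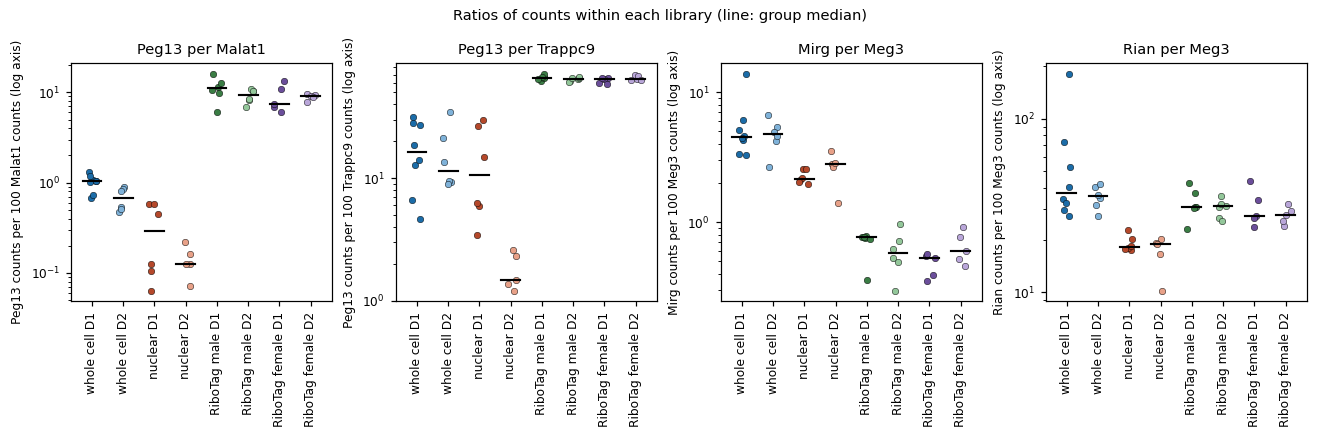
Counts of Peg13 per 100 of Malat1 and of Trappc9, and of Mirg and Rian per 100 of Meg3, in every library (log axes, line at the group median). Peg13 is highest in RiboTag libraries on both denominators, Mirg per Meg3 is lowest there, and Rian per Meg3 is lowest in nuclear libraries.

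D1- and D2-MSNs were then compared within each preparation, with genes filtered by FPKM as in the study's methods. In whole cell libraries 9 of the 10 RNAs were tested and 0 were called (0 at an unadjusted p of at most 0.05 in edgeR, 4 in DESeq2, and 0 called by DESeq2), where 1.49% of genes were called. The log2 fold changes, positive for a higher level in D2, ran from -0.34 ± 0.24 for Miat to 0.42 ± 0.31 for Malat1, and all 10 RNAs overlapped between the cell types. Neat1 did not reach the FPKM filter. In RiboTag males 6 were tested and 0 called by edgeR or DESeq2 (0 at an unadjusted p of at most 0.05 in edgeR, 1 in DESeq2), where 3.87% of genes were called. Miat had the largest value (0.41 ± 0.20, edgeR adjusted p = 0.236) and Peg13 the smallest error (-0.07 ± 0.05, adjusted p = 0.443). RiboTag females gave 0 calls among the same 6 (0 at an unadjusted p of at most 0.05, and 0 by DESeq2), where 2.60% of genes were called, with values from -0.14 to 0.08. Neat1, Mirg, Snhg14 and Kcnq1ot1 did not pass the filter for RiboTag libraries.

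Between the nuclear groups 2 of the 10 were called, both lower in D2, where 17.8% of genes were called. Rian had a log2 fold change of -0.71 ± 0.23 (edgeR adjusted p = 0.0454) and Peg13 of -1.66 ± 0.40 (adjusted p = 0.0159). The 10 RNAs had a median of -0.41 and all genes 0.09. These calls turn on single libraries and settings: Rian was lost without any one of the nuclear D2 libraries 1, 3, 5 or 7 (-0.64, -0.76, -0.53 and -0.63), and Peg13 without number 5 (-1.57) or without the nuclear D1 libraries 1, 5 and 6 (-0.59, adjusted p = 0.143). Without these 3, Kcnq1ot1 was called in its place (-0.78 ± 0.16, adjusted p = 0.0377), with Rian called still (-1.03, adjusted p = 0.044). With no FPKM filter, 8 of the 10 were called lower in D2, where 19.4% of genes were called lower and 5.43% higher, Malat1 at -1.72 ± 0.45, Meg3 at -1.63 ± 0.42 and Kcnq1ot1 at -1.41 ± 0.29. On the FPKM scale over all 47 libraries, 5 RNAs (Malat1, Rian, Mirg, Snhg14 and Peg13) were lower in every nuclear D2 than in every nuclear D1 library, as were 11.9% of all genes, while 14.3% were higher in every one. Of the genes called, 40.8% were higher in D2 with the filter, 21.9% without it and 86.8% with library totals. The nuclear D2 libraries had 32.4 to 52.2% of their counts accounted for by the background between genes, against 0.579 to 22.2% in nuclear D1 libraries, and its part in these differences was not tested.

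**Figure D5:**
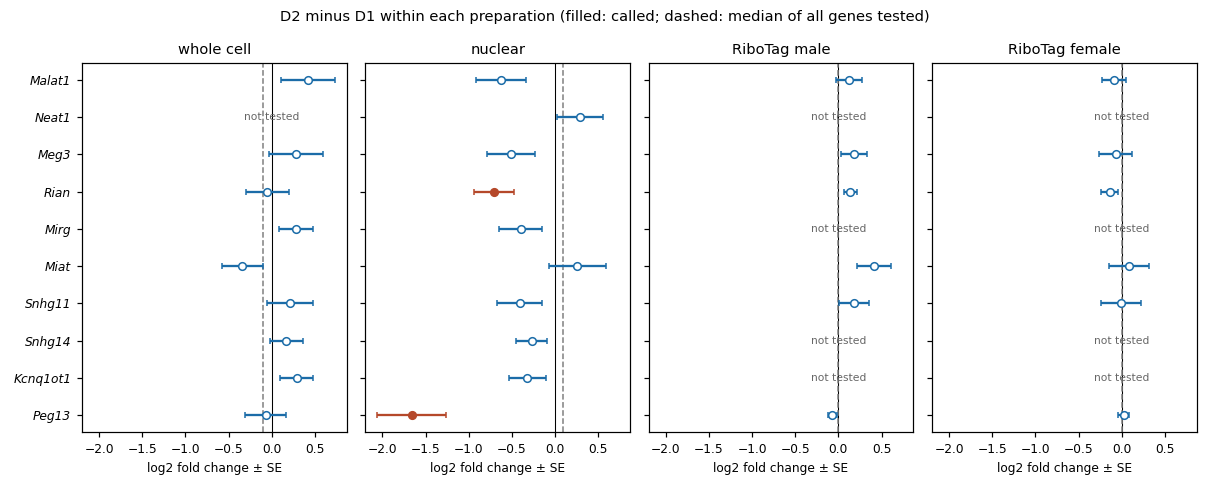
Log2 fold change of D2 against D1 with its standard error (edgeR) for the 10 RNAs within whole cell, nuclear, RiboTag male and RiboTag female libraries, filled where called, with a dashed line at the median of all genes tested. Only Rian (-0.71) and Peg13 (-1.66) in nuclear libraries are called, and the RiboTag values stay within -0.14 to 0.41.

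Females and males were compared on ribosomes. None of the 6 RNAs tested was called in D1 or D2, where 0% and 0.0696% of genes were called, and none was called by DESeq2. In D1, 3 had an unadjusted p of at most 0.05 in edgeR. The female minus male log2 value was 0.32 ± 0.10 for Rian, 0.58 ± 0.24 for Snhg11 and 0.41 ± 0.20 for Meg3, with edgeR adjusted p = 0.398, 0.564 and 0.626. Among D2 groups 0 had such a p, and the values ran from -0.00 to 0.39. The difference between the sexes in D2 against D1 was not called either (0 of 6, 0% of genes, 0 at an unadjusted p of at most 0.05), with values from -0.33 to 0.09.

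Other genes place these values, and the shares of all genes called apply to each list below. Against whole cells, 9.46% of all genes were called higher and 8.98% lower in nuclear D1, and 5.46% and 14.4% in nuclear D2. On ribosomes 17% were called higher and 62.2% lower in D1, and 18.2% and 59.6% in D2. Of 27 further long non-coding RNAs listed, 25 were in the table, of which 10 were called higher and 1 lower in nuclear D1 and 2 higher and 6 lower in nuclear D2 than in whole cells. On ribosomes 15 of the 25 were called lower in each cell type, and 6 in D1 and 5 in D2 higher. Tug1, an RNA found in nucleus and cytoplasm, followed Peg13, at -0.96 ± 0.30 and -2.75 ± 0.35 in nuclear D1 and D2 and 1.39 ± 0.28 and 1.76 ± 0.31 in RiboTag. It is named after its values were seen, and the values of genes other than the 10 were computed on the TMM scale alone. Of 13 other snoRNA host genes, 10 were called lower on ribosomes in each cell type and 0 higher, and 3 were called higher and 0 lower in nuclear D1 and 0 higher and 5 lower in nuclear D2 than in whole cells. Of the mRNAs of 17 speckle and paraspeckle proteins, 12 were called higher and 0 lower on ribosomes in D1, and 11 and 0 in D2. In nuclear D1 libraries 7 of them were called higher and 1 lower than in whole cells, and in nuclear D2 libraries 1 higher and 13 lower. The gene called higher in nuclear D2 was Qk, the splicing regulator QKI, known to be high in oligodendrocytes, at 2.63 ± 0.18 and 1.10 ± 0.20 in nuclear D1 and D2.

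Imprinted neighbours and hosts of the members were tested in the same fits. Of 18 such genes, 7 were called higher and 6 lower on ribosomes in D1, and 7 and 5 in D2. Of all genes, 17% were called higher and 62.2% lower there in D1, and 18.2% and 59.6% in D2. Dlk1, the paternally expressed gene of a Notch ligand-like membrane protein at the start of the Meg3 domain, was higher on ribosomes by 2.87 ± 0.29 in D1 and 2.68 ± 0.33 in D2. Between cell types Dlk1 was lower in D2, at -1.26 ± 0.31 in whole cell, -1.42 ± 0.10 in RiboTag male and -1.78 ± 0.13 in RiboTag female libraries (edgeR adjusted p = 0.0472, 4.26e-10 and 5.18e-09). Meg3, read from the other parental chromosome, had 0.28 ± 0.31 in whole cell and 0.18 ± 0.15 in RiboTag male libraries, neither called. Rtl1, within the same domain, was lower in D2 in RiboTag females (-0.93 ± 0.15, adjusted p = 0.000466). Of the 9 such genes tested in RiboTag males, 1 was called, Dlk1, so Rtl1 was not called there.

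Over the 47 libraries, Pearson's r of log2 CPM was positive between all pairs of 9 of the RNAs, from 0.34 for Neat1 with Rian through 0.53 for Malat1 with Neat1 to 0.95 for Malat1 with Meg3 and 0.98 for Snhg11 with Kcnq1ot1. Peg13 had r from -0.73 (Neat1) to -0.31 (Rian) with the other 9. The points share preparation and library scaling, so these values are descriptions of the groups. The genes most like each RNA over all genes were C230004F18Rik (0.966) for Malat1, Snhg11 (0.967) for Meg3, Clk1 (0.975) for Rian, Focad (0.978) for Mirg, Pex5l (0.927) for Miat, Cadm2 (0.966) for Snhg14 and Me3 (0.980) for Kcnq1ot1. Neat1 was most like Hipk2 (0.952), Bcas1 (0.936) and Slc1a3 (0.932). Peg13 was most like the mRNAs of Ncdn (0.994), Actb (0.993) and Cdk5r1 (0.993).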

How the data were processed

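Counts of RNA fragments per gene were deposited by the authors for 52636 genes as 49 columns, of which 0 were unused. Ribosomal RNA had been depleted and libraries made with a stranded SMARTer kit. Per the study's methods and processing notes, paired reads were aligned with HISAT2 2.0.5 to GRCm38 and counted over whole gene bodies with featureCounts, without strand, with fragments given to every gene they touched and multi-mapped reads left out. Columns taken as further runs of a library were summed (47 libraries). These were a repeat of whole cell D1 number 1 and a second lane of whole cell D2 number 3. The study counts more whole cell samples of each cell type than the 8 D1 and 6 D2 libraries used here. Some deposited titles of whole cell D2 samples have no column of their own. Gene spans came from GENCODE vM21, which matched 52489 genes (99.72%). Counts over introns raise long genes in nuclear RNA and in libraries with background.

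Genes above 1 fragment in 1e6 in 2 libraries were tested with edgeR 4.0.16 (R 4.3.3, quasi-likelihood, TMM, Benjamini-Hochberg), all groups in 1 fit with males entering the comparisons of preparations. RiboTag females entered only the comparisons named so. Within a preparation, whole cell and nuclear genes also needed an FPKM of 1 in 1 library and none above 50000, and RiboTag genes 0.1 in 2 libraries. Calls needed an adjusted p of at most 0.05 and an absolute log2 fold change above 0.38. log2 CPM used a prior count of 1. Background was the count per kilobase over 1432 olfactory and vomeronasal receptor genes. A count of 3 corresponds to 0.0436 to 0.81 CPM, and such limits cover counting error only. DESeq2 1.42.0, 3 further scalings, filters, left-out libraries and the replicate number as a block were tried as alternatives. On simulated data the nuclear D1 against whole cell test called 73% of genes made to differ by 2 on the log2 scale and 23% of those by 1 among 36241 genes.

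All 10 RNAs are named, other genes only where a result turns on them, and each RNA with the 3 genes most like it at most. The members and lists were chosen with earlier results of these data known.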

Additional observations from a re-analysis of the deposited data

Results flagged for a closer look

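The step from whole cells to nuclei differed between D2 and D1 libraries for 8 of the 10 RNAs, where 23.1% of all genes were called. The test was edgeR's of the difference itself (8 groups in 1 fit, Benjamini-Hochberg over all genes tested). The log2 difference, D2 minus D1, was -2.79 ± 0.50 for Peg13 (adjusted p = 7.57e-05), -2.11 ± 0.51 for Malat1 (0.00207), -1.87 ± 0.51 for Meg3 (0.00701) and -1.75 ± 0.43 for Rian (0.0024). It was -1.73 ± 0.42 for Mirg (0.00214), -1.70 ± 0.40 for Kcnq1ot1 (0.00168), -1.68 ± 0.51 for Snhg11 (0.0139) and -1.55 ± 0.35 for Snhg14 (0.00111), against 0.61 as the median of all genes. The background between genes accounted for 32.4 to 52.2% of the counts of nuclear D2 and 0.579 to 22.2% of nuclear D1 libraries, and the mitochondrial gene mt-Rnr2 lay at 19.3 to 110 and 206 to 8023 CPM. Their part in the differences was not tested.

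Miat in the nuclear D1 library number 6 stood apart from the other 5 libraries of its group, at 0.616 FPKM where the next was at 1.98. Of 80 groups of levels examined, 1 met this criterion, which chance meets in about 1 in 20 groups.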

How the results depend on the processing

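Scaling and background decide the finer results. The number of RNAs with a called difference between D2 and D1 in the step to nuclei fell from 8 to 4 with the background subtracted. It fell to 1 with library totals. All of these were lower in D2. Of all genes, 3279 were called higher and 5082 lower with TMM, 2531 and 3052 with the background subtracted, and 20264 and 285 with library totals. Between nuclear D2 and D1 libraries, 1 RNA was called with DESeq2 size factors, 1 with library totals, 1 with background subtracted and 8 with no FPKM filter. In the same order, 7.98, 26.4, 11.8 and 5.43% of genes were called higher in D2 and 9.61, 4.00, 10.5 and 19.4% lower. Leaving out single nuclear D2 libraries gave 0 to 2, where 1.54 to 3.85% of genes were called higher and 4.54 to 7.37% lower. With library totals, 3 RNAs were called between the sexes in RiboTag D1. Apart from the fits to numbered libraries described last, the other counts, both directions summed, stayed within 1.5 times their value. With library totals, however, the nuclear D1 against whole cell count was 3 higher and 2 lower in place of 7 and 0. Of 36241 genes, 435 were called higher and 20805 lower there. On the same scale RiboTag against whole cell gave 0 higher and 10 lower in each cell type, where 35698 (D1) and 34824 (D2) genes were called lower. Of the single RNAs' values, 1195 kept direction and call, 45 lost and 31 gained a call.

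Directions turned as follows, and the cause was not tested. In nuclear against whole cell D1, library totals gave -0.76 for Rian and -0.46 for Mirg. In nuclear against whole cell D2, Meg3 was 0.01 with DESeq2 and with its size factors, 0.08 with totals, 0.28 with background subtracted and 0.18 with TMM over shared protein-coding genes. The same settings gave 0.08, 0.16, 0.37 and 0.25 for Snhg11 and 0.17, 0.21, 0.36 and 0.34 for Kcnq1ot1, which ran from -0.26 to 0.03 with single nuclear D2 libraries left out, the latter without number 5. For the difference between D2 and D1 of that step, totals, background subtraction and shared protein-coding TMM gave 1.13, 0.20 and 0.18 for Neat1 and 0.97, 0.35 and 0.08 for Miat. In RiboTag against whole cell, totals gave -1.44 (D1) and -1.40 (D2) for Peg13, and Miat in D2 was 0.00 without the 10 highest genes and 0.01 without whole cell D2 number 2. For D2 against D1 in whole cells, DESeq2, its size factors and no FPKM filter gave 0.12, 0.12 and 0.14 for Rian and 0.10, 0.10 and 0.15 for Peg13, which was 0.02 without whole cell D2 number 2. In nuclei, no FPKM filter gave -0.70 for Neat1 and -0.82 for Miat, leaving out nuclear D1 numbers 1, 5 and 6 gave -0.15 and -0.30, and totals gave 0.07 for Mirg, 0.03 for Snhg11, 0.22 for Snhg14 and 0.13 for Kcnq1ot1. In RiboTag females, leaving out single libraries gave -0.23 to 0.02 for Malat1 (the latter without D1 number 6) and -0.00 (without D2 number 2 or 3) to 0.05 for Peg13, which was -0.11 with totals.

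The replicate numbers did not pair the samples, with correlations of same-numbered deviations from -0.38 to 0.15. With the number as a replicate block, RiboTag against whole cell called 1 RNA higher and 8 lower in D1 and 1 higher and 7 lower in D2, where Neat1 was lost (-0.75), and D2 against D1 called 0 in whole cell and 0 in RiboTag male libraries. Chosen after seeing the data, the same block over the libraries numbered 1 to 6 of 2 groups alone called 2 RNAs higher in nuclear against whole cell D1 (Neat1 and Miat) and 9 higher and 1 lower in nuclear against RiboTag D1. The same libraries without the number called 4 higher, and 9 higher and 1 lower. Each sample came from its own mouse per the study's methods, so no paired analysis applied. No replicate block could be fitted for contrasts that use nuclear D2 or RiboTag female libraries, whose columns carry no number of the labels. A repeat run of whole cell D1 number 1 was summed with its first run, from which it differed nearly as much as separate libraries do (chi-square per gene 6.25, against 7.05 for numbers 3 and 4 and 1.04 for the lanes of whole cell D2 number 3), and leaving it out or keeping it apart left the counts of calls between preparations as they were. With 5 to 8 libraries a group, smaller differences than those called may go undetected, most of all in whole cell and nuclear libraries.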
